A study of Mus musculus with 18 samples.

Results

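The 10 genes described here encode feedback inhibitors of MAP kinase signaling, and they were taken by name as a list: the dual-specificity phosphatases Dusp1, Dusp4, Dusp5, Dusp6, Dusp8, Dusp10 and Dusp16, the Sprouty proteins Spry2 and Spry4, and the Sprouty-related protein Spred1. They are 10 of the 47643 genes with counts in each library, and all 10 were among the 13771 genes that exceeded 1 CPM (a gene's count scaled by its library's total) in at least 3 libraries and were tested. This list was chosen with earlier results of these data known, so its counts set beside shares of all tested genes are descriptions only. RNA was sequenced from spot cultures of dorsal root ganglion (DRG) neurons taken from CD-1 mouse embryos at e13.5 and grown with the mitotic inhibitor FDU. Every group shared the strain, the embryonic age, FDU and the spot format. Uninjured control cultures were collected at DIV7, and the axons of the injured cultures were cut with a blade. The labels place the collection of the injured cultures on DIV7 too, whereas the study's text places the cut on DIV7, which would make those cultures older than the controls; if so, culture age and time after injury cannot be told apart. Cells were taken 1, 3, 8, 16 and 24 h after the cut (1, 3, 8, 16 and 24 HPI, hours post injury), with 3 libraries in each of the 6 groups. The labels do not say whether the 3 libraries of a group came from separate cultures or animals. The p-values measure the spread left between libraries after a shared offset of each replicate number is removed, and that spread may be technical. The libraries are bulk RNA, in which fewer cells expressing a gene and less of its RNA per cell cannot be told apart.

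MAP kinases carry signals from growth factor and stress receptors to the nucleus by a chain of kinases that ends in ERK, JNK or p38, each of which is active when phosphorylated on a threonine and a tyrosine. Dual-specificity phosphatases of the MKP class remove both phosphates. Dusp1, Dusp4 and Dusp5 are nuclear and are transcribed in response to the kinases they switch off, Dusp6 acts on ERK in the cytoplasm, and Dusp8, Dusp10 and Dusp16 act mainly on JNK and p38. Sprouty and Spred proteins act further up, between receptor tyrosine kinases, Ras and Raf. In sensory neurons, axon injury is known to activate the JNK pathway.

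Transcription of such genes is often driven by CREB, which binds the cAMP response element (CRE), and by serum response factor, which binds the CArG box. Of the 10 genes, 8 had a promoter entry in RefSeq (GRCm38.p6), and the 250 bases before each RefSeq gene start were searched on both strands. The CRE was written as TGACGTCA, its short form as TGACG (every CRE also holds this short form), the AP-1 site as TGANTCA, the EGR site as GCGNGGGCG, the ETS site as CCGGAAG and the TATA box as TATAAA, and the CArG box was searched as its usual consensus. Dusp1, Dusp5, Dusp8 and Dusp16, the 4 genes with an entry that passed the test above control at 8 or 16 HPI (values follow), are printed 5′ to 3′ with the matches in capitals. The regions are chr17:26508473-26508722 (minus strand) for Dusp1, chr19:53528895-53529144 (plus strand) for Dusp5, chr7:142095285-142095534 (minus strand) for Dusp8 and chr6:134792629-134792878 (minus strand) for Dusp16.
Dusp1: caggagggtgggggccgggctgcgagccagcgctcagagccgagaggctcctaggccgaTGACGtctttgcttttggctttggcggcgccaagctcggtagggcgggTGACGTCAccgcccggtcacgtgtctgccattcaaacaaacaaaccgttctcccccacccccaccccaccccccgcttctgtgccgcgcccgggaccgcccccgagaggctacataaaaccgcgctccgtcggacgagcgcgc
Dusp5: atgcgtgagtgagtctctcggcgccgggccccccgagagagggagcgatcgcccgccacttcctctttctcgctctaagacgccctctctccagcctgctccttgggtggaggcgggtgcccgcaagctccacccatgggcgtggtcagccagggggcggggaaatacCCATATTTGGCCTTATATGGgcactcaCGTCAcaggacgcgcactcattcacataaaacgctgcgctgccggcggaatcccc
Dusp8: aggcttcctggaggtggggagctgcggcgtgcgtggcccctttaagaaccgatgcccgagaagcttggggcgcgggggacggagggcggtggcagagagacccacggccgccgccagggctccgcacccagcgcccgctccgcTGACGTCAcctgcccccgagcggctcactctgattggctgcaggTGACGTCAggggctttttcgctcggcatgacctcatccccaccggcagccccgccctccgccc
Dusp16: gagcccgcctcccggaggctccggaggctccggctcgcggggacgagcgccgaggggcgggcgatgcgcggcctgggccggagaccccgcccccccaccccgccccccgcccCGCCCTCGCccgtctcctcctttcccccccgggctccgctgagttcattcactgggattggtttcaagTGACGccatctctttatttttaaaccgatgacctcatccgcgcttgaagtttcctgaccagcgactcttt
Dusp1 held a CRE 143 to 136 bases before the start and a further short form 191 to 187 bases before it. Dusp5 held a pair of adjoining CArG boxes, 82 to 73 and 72 to 63 bases before the start, and a short CRE at 55 to 51. Dusp8 held a CRE at 107 to 100 and another at 63 to 56. Dusp16 held a short CRE at 70 to 66 and an EGR match at 138 to 130. No match to these 7 motifs was found in the same window of Dusp6, Dusp10, Spry2 or Spred1. The windows of Dusp1, Dusp8 and Dusp10 lie inside their GENCODE vM21 gene models. For Dusp10 the window is chr1:184034131-184034380 and the model starts at 184013302. Sequence before the starts of these models was not searched. Among 32817 RefSeq promoters of the same length, 1.55% held a CRE, 17.7% a short CRE, 1.47% a CArG box, 4.7% an EGR match, 6.75% an AP-1 match, 6.9% an ETS match and 12.4% a TATA box. The matches are a description of these letters, and binding was not measured.

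**Figure D1:**
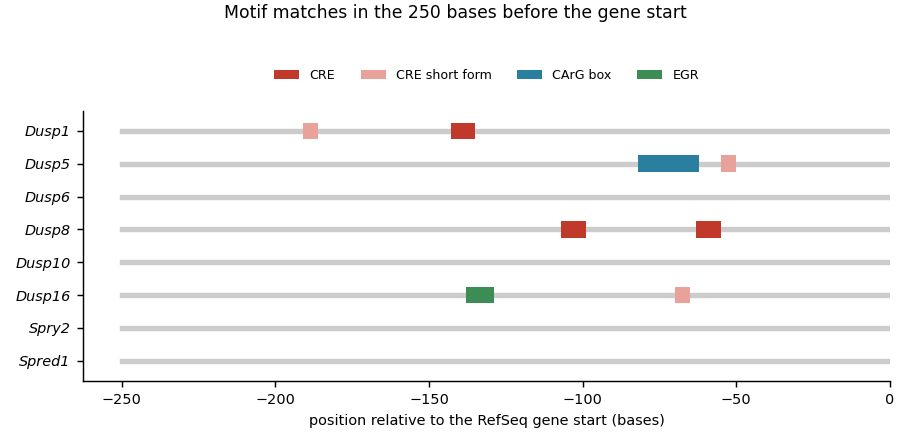
Motif matches in the 250 bases before the RefSeq start of the 8 genes with an entry; the horizontal axis is the distance from the start in bases (negative, before the start), and each colored block spans a match. Dusp1 and Dusp8 hold a CRE, Dusp5 holds adjoining CArG boxes 82 to 63 bases before the start, and the lines of Dusp6, Dusp10, Spry2 and Spred1 carry no block.

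The libraries held from 9478891 counts on genes (8 HPI replicate 2) to 23082327 (3 HPI replicate 2), and each of the 10 genes had at least 48 counts in every library. The neuron markers Tubb3, Avil, Pou4f1, Isl1 and Prph summed to between 6604 and 8348 CPM per library. Satellite glia markers summed to at most 12.3 CPM, fibroblast markers to at most 19.5, myeloid markers to at most 7.07 and endothelial markers to at most 1.36. Schwann cell markers summed to 87.1 to 128 CPM, nearly all of it Mbp, and Mag, Gfap and Egr2 reached at most 0.527 CPM each. A list of residual ribosomal RNA genes summed to 6656 to 10160 CPM outside the 16 HPI group and to 9947 to 21500 CPM within it, highest in 16 HPI replicate 1. The part of these other sources in the values below was not tested.

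Compared per length, as CPM divided by the exon length in kilobases (RPKM), the 10 genes differed widely in level in the control cultures. Dusp8 was highest, at 16.0 ± 3.09 RPKM, followed by Spry4 at 14.3 ± 1.69, Spred1 at 11.3 ± 3.47, Dusp10 at 10.3 ± 4.16, Spry2 at 10.2 ± 2.88 and Dusp6 at 10.1 ± 3.70 (mean ± SD, n = 3). Each neighbor in this order overlapped the next over the 3 control libraries. Dusp1 stood below all of them at 3.05 ± 0.530 RPKM, then Dusp5 at 1.51 ± 0.400 and Dusp4 at 1.13 ± 0.144, which overlapped each other, and Dusp16 was lowest at 0.581 ± 0.0516. At 16 HPI, Dusp1 ranged from 9.02 to 11.1 RPKM, a level whose libraries overlapped those of Dusp6, Spred1 and Dusp10 at that time. This place depends on the length used. Divided by the longest transcript instead, Dusp1 ranged from 12.91 to 15.9 at 16 HPI. It then lay above Dusp10 (6.58 to 12.27) and just above Dusp6 (11.45 to 12.87), and it overlapped Spred1, Spry2, Spry4 and Dusp8. Dusp4 reached 4.55 ± 0.754 RPKM at 16 HPI, above Dusp5 at 3.79 ± 0.519 by mean but with overlapping libraries.

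**Figure D2:**
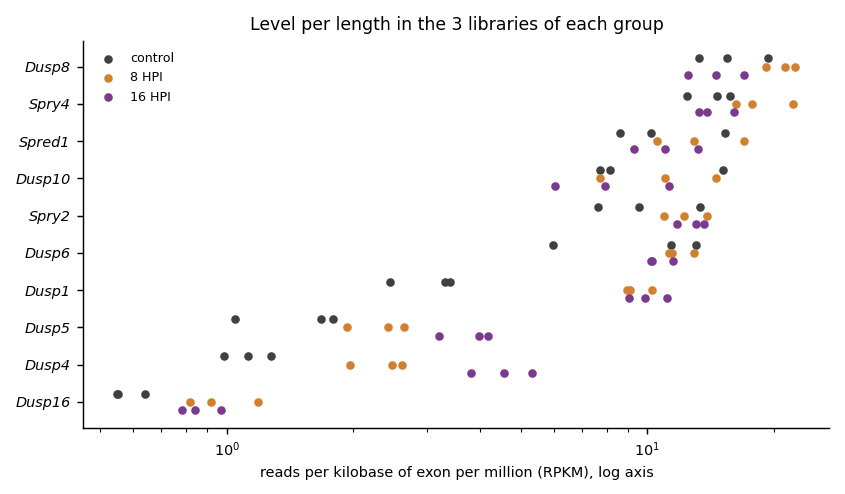
RPKM of each gene (log axis) in the 3 libraries of the control (gray), 8 HPI (orange) and 16 HPI (purple) groups, 1 point per library. In the control libraries Dusp8 leads at a mean of 16.0 RPKM and Dusp16 is lowest at 0.581 RPKM, and the points of Dusp1, Dusp4 and Dusp5 lie to the right of their control points at 16 HPI.

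Over the time course, changes of these genes passed the test against control at 8, 16 and 24 HPI and not at 1 or 3 HPI. Each gene was tested at each time point against control with edgeR's quasi-likelihood test, with the replicate number as batch and p-values adjusted over all genes tested; passing means an adjusted p under 0.05. At 1 HPI and at 3 HPI, 0 of the 10 passed, where 0.276% and 0.189% of all tested genes passed in either direction. With an unadjusted p under 0.05 as the limit, 2, 6, 8, 5 and 4 of the 10 were above control at 1, 3, 8, 16 and 24 HPI and 2, 2, 0, 2 and 2 were below it. At this looser limit as many of the 10 differed from control at 3 HPI as at 8 HPI. The share of all tested genes at this limit is not given here, so these counts cannot be set against the adjusted shares. The DESeq2 Wald test called 0 at 1 HPI and 1 (Dusp8, lower) at 3 HPI. At 8 HPI, 5 of 10 were higher (Dusp1, Dusp4, Dusp8, Dusp16 and Spry4), against 3.78% of all tested genes, and 0 were lower, also by an unadjusted p or by DESeq2, against 3.90%. At 16 HPI, 4 of 10 were higher (Dusp1, Dusp4, Dusp5 and Dusp16), against 10.7%, and 1 (Dusp10) was lower, against 11.5%. At 24 HPI, 3 of 10 were higher (Dusp1, Dusp4 and Dusp5), against 5.99%, and 2 (Dusp8 and Dusp16) were lower, against 9.03%.

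More than 2-fold higher than control were 2 of 10 at 8 HPI (Dusp1 and Dusp4), where 0.254% of all tested genes were, 3 of 10 at 16 HPI (Dusp1, Dusp4 and Dusp5), where 1.18% were, and 0 at 24 HPI, where 0.639% were and Dusp4 missed the limit at 0.98 (1.10 without control replicate 2, 1.13 without 24 HPI replicate 3 and 1.01 with upper-quartile factors). The 3 genes over 2-fold are the 3 nuclear inducible phosphatases of the list. The median log2 fold change of the 10 genes against control was 0.14, 0.30, 0.40, 0.20 and 0.11 at 1, 3, 8, 16 and 24 HPI, where the median of all tested genes was 0.00 at each time. A test of any difference among the 6 groups was passed by 9 of 10, all but Spry2 (adjusted p = 0.181), against 30.0% of all tested genes. Without the replicate block, 4 of 10 passed that test, and the counts of genes above control became 2 at 8 HPI, 3 at 16 HPI and 1 at 24 HPI, with 0 below control at any of these times. The 5 time points share the same 3 control libraries, so their differences from control are not independent of each other.

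**Figure D3:**
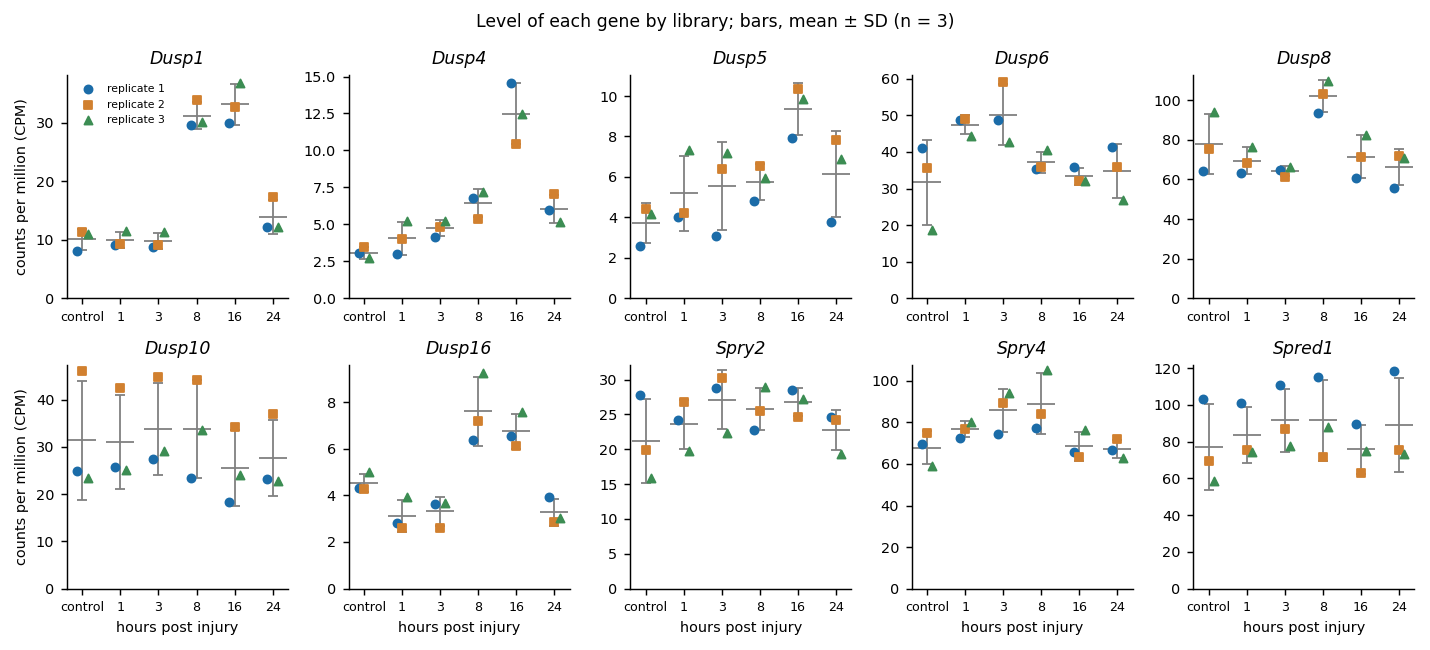
CPM of each of the 10 genes (vertical axes from 0, each with its own scale) in the 18 libraries, by group; circles, squares and triangles are replicates 1, 2 and 3, and the bars are the mean ± SD of the 3 libraries. Dusp1 sits between 29.6 and 36.8 CPM at 8 and 16 HPI, above every other group, while Spry2 and Dusp10 overlap the control libraries at each time.

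Dusp1, an inducible nuclear phosphatase of p38, JNK and ERK, rose 3.12-fold by 8 HPI and stayed there at 16 HPI. Its level (in the order of replicates 1, 2 and 3) was 8.08, 11.3 and 10.9 CPM in control libraries, 9.09, 9.36 and 11.6 at 1 HPI and 8.72, 9.19 and 11.3 at 3 HPI. It was 29.6, 33.9 and 30.1 CPM at 8 HPI, 29.9, 32.7 and 36.8 at 16 HPI and 12.2, 17.2 and 12.2 at 24 HPI. The libraries of the first 3 groups overlapped each other, those of 8 and 16 HPI lay far above every one of them and overlapped each other, and those of 24 HPI lay between. Against control, the log2 fold change was 1.64 ± 0.12 (SE), adjusted p = 4.08e-08 at 8 HPI and 1.70 ± 0.11 (SE), adjusted p = 4.11e-09 at 16 HPI. Between neighboring times it rose from 3 to 8 HPI (1.70 ± 0.11 (SE), adjusted p = 1.74e-08), differed by 0.06 from 8 to 16 HPI (adjusted p = 0.751) and fell from 16 to 24 HPI (-1.24 ± 0.11 (SE), adjusted p = 6.11e-07). At 24 HPI Dusp1 was still above control (0.46 ± 0.12 (SE), adjusted p = 0.0142); this call was lost without the replicate block (adjusted p = 0.145), without control replicate 1 (log2 fold change 0.36) and without 24 HPI replicate 2 (0.31). The gene model of Dusp1 (ENSMUSG00000024190.6, chr17:26505590-26562128, minus strand, GRCm38) extends well upstream of the RefSeq start and shares exon sequence with Ergic1 on the opposite strand, which held 1198 to 2780 counts per library, and whether reads were counted by strand is not given in the sources used here.

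Dusp4 (ENSMUSG00000031530.6, chr8:34807297-34819894, plus strand), a nuclear phosphatase of ERK and JNK, reached the largest fold change of the 10 genes, at 16 HPI. Its level was 3.08, 3.49 and 2.70 CPM in control libraries, 2.98, 3.99 and 5.20 at 1 HPI and 4.17, 4.85 and 5.23 at 3 HPI. It was 6.78, 5.38 and 7.17 CPM at 8 HPI, 14.5, 10.4 and 12.5 at 16 HPI and 5.94, 7.07 and 5.17 at 24 HPI. Every library from 3 HPI on lay above every control library, and those of 16 HPI lay above all others. The log2 fold change against control was 1.11 ± 0.21 (SE), adjusted p = 0.0023 at 8 HPI, 2.01 ± 0.19 (SE), adjusted p = 2.69e-07 at 16 HPI and 0.98 ± 0.20 (SE), adjusted p = 0.00253 at 24 HPI. At 3 HPI it was 0.64 with an adjusted p of 0.176. The steps from 1 to 3 HPI (0.25, adjusted p = 0.775) and from 3 to 8 HPI (0.48, adjusted p = 0.257) did not pass. From 8 to 16 HPI Dusp4 rose (0.90 ± 0.17 (SE), adjusted p = 0.00122), and from 16 to 24 HPI it fell (-1.03 ± 0.17 (SE), adjusted p = 0.000367). These calls against control held in all 26 alternatives (other normalizations, filters and models, and each library left out in turn), but without control replicate 3 the log2 fold change at 8 HPI was 0.99 and so no longer over 2-fold.

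Dusp5 (ENSMUSG00000034765.6, chr19:53529109-53542431, plus strand), a nuclear phosphatase that is specific for ERK, was highest at 16 HPI. Its level was 2.59, 4.43 and 4.15 CPM in control libraries, 4.02, 4.24 and 7.32 at 1 HPI and 3.10, 6.41 and 7.16 at 3 HPI. It was 4.79, 6.54 and 5.97 CPM at 8 HPI, 7.92, 10.4 and 9.84 at 16 HPI and 3.75, 7.84 and 6.87 at 24 HPI. Replicate 1 was the lowest library of every group, the 16 HPI libraries all lay above the highest library of every other group, and those of 8 HPI lay just above control. At 16 HPI the log2 fold change was 1.32 ± 0.18 (SE), adjusted p = 2.6e-05. At 8 HPI it was 0.65 with an adjusted p of 0.0546, and 9 of 26 alternatives put it under 0.05. At 24 HPI it was 0.72 ± 0.19 (SE), adjusted p = 0.0138, a call lost without the replicate block (adjusted p = 0.309), without control replicate 3 (0.067) and without 24 HPI replicate 2 (0.083). The rise from 8 to 16 HPI (0.68 ± 0.18 (SE), adjusted p = 0.0124) was lost without the block, without 8 HPI replicate 3 and without 16 HPI replicate 1, where the log2 fold change was 0.53 in each of the last pair. The fall from 16 to 24 HPI (-0.60 ± 0.17 (SE), adjusted p = 0.024) was lost without the block and without 16 HPI replicate 1, 16 HPI replicate 2, 24 HPI replicate 1 or 24 HPI replicate 3. In GENCODE vM21 the exons of Dusp5 overlap those of an antisense gene, AC137853.2, whose reads could be counted with it if strand was not used.

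**Figure D4:**
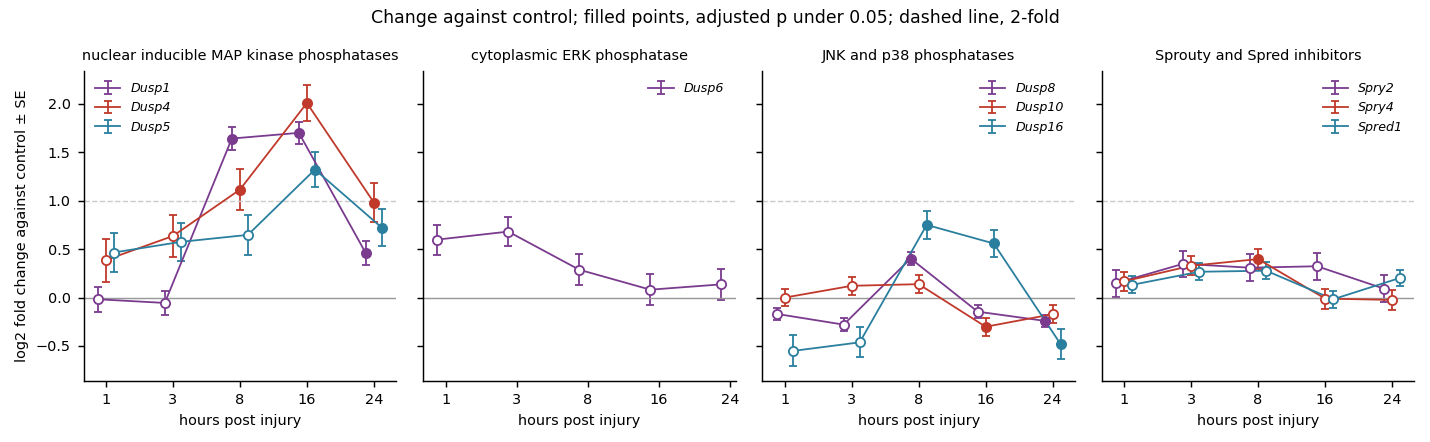
Log2 fold change against control with its standard error at 1, 3, 8, 16 and 24 HPI (horizontal axis, not to scale in hours), 1 panel for each role; filled points passed the test and open points did not. Dusp1 stands at 1.64 and 1.70 at 8 and 16 HPI, Dusp4 peaks at 2.01, Dusp16 crosses from 0.56 at 16 HPI to -0.48 at 24 HPI, and the Sprouty and Spred panel holds 1 filled point, Spry4 at 8 HPI.

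Dusp6 (ENSMUSG00000019960.7, chr10:99263231-99267489, plus strand), the cytoplasmic ERK phosphatase, had its highest means at the 2 earliest times, when the nuclear phosphatases had not yet passed the test, but it passed at none against control. Its level was 41.0, 35.5 and 18.7 CPM in control libraries, 48.9, 49.1 and 44.4 at 1 HPI and 48.6, 59.1 and 42.9 at 3 HPI. From 8 to 24 HPI it lay between 27.0 and 41.5 CPM. All libraries of 1 and 3 HPI lay above all control libraries, and control replicate 3 was far lower than the other control libraries. With the TMM factors that the test used for normalization, 3 HPI replicate 3 (42.05 CPM) lay under control replicate 1 (42.55 CPM). On that scale the lowest 1 HPI library (42.82 CPM) lay just above it. The log2 fold change was 0.60 ± 0.15 (SE), adjusted p = 0.0974 at 1 HPI and 0.68 ± 0.15 (SE), adjusted p = 0.0652 at 3 HPI. Within the batches of replicates 1, 2 and 3, the log2 difference from control was 0.23, 0.46 and 1.24 at 1 HPI and 0.20, 0.72 and 1.21 at 3 HPI. The adjusted p at 1 HPI went under 0.05 in 2 of 26 alternatives (0.031 with the filter at 10 counts and 0.0035 when these groups were fitted alone), and that at 3 HPI in 4 of 26, the lowest being 0.016 with the filter at 10 counts. Without control replicate 3 the log2 fold change was 0.35 at 1 HPI (adjusted p = 0.328) and 0.44 at 3 HPI (0.334). The test over all 6 groups was passed (adjusted p = 0.00424).

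Of the phosphatases of JNK and p38, Dusp8 and Dusp16 rose at 8 HPI and Dusp10 did not pass there. Dusp8 (ENSMUSG00000037887.11, chr7:142079490-142095843, minus strand) was 64.4, 75.2 and 94.1 CPM in control libraries, 63.1, 68.5 and 76.5 at 1 HPI and 64.9, 61.3 and 66.1 at 3 HPI. It was 93.4, 103 and 109.5 CPM at 8 HPI, 60.7, 71.1 and 82.6 at 16 HPI and 55.8, 71.7 and 71.0 at 24 HPI. Replicate 3 was the highest or next to highest library of each group. The lowest 8 HPI library (93.4 CPM) lay just under the highest control library (94.1 CPM), so these groups overlapped although each batch was higher at 8 HPI. With the TMM factors used in the test they did not overlap, at 99.1 to 105.7 CPM against 66.9 to 90.7 in control. The 3 HPI libraries, at 61.7 to 65.4 CPM on that scale, lay below control. The log2 fold change was 0.40 ± 0.06 (SE), adjusted p = 0.00046 at 8 HPI and -0.24 ± 0.06 (SE), adjusted p = 0.0133 at 24 HPI, and the increase was a single peak, with a rise from 3 to 8 HPI (0.68 ± 0.06 (SE), adjusted p = 1.09e-06) and a fall from 8 to 16 HPI (-0.55 ± 0.06 (SE), adjusted p = 1.18e-05). Without the replicate block the call at 8 HPI was lost (adjusted p = 0.104), and that at 24 HPI was lost without the block (0.274), without control replicate 3 and without replicate 1 or 3 of 24 HPI, while the rise and the fall around 8 HPI held in all 26 alternatives. At 3 HPI the log2 fold change was -0.28 (adjusted p = 0.0675), which passed by the DESeq2 Wald test (0.02), without control replicate 1 (0.027) and without 3 HPI replicate 1 (0.019); at 16 HPI it was -0.15 (0.112) and passed without control replicate 1 (0.031). Gm32786, a gene read from the opposite strand, overlaps the exons of Dusp8 in GENCODE vM21.

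Dusp16 (ENSMUSG00000030203.17, chr6:134715468-134792625, minus strand), the lowest of the 10 genes per length, moved in both directions. Its level was 4.31, 4.29 and 4.995 CPM in control libraries, 2.82, 2.61 and 3.92 at 1 HPI and 3.64, 2.60 and 3.69 at 3 HPI. It was 6.38, 7.17 and 9.26 CPM at 8 HPI, 6.56, 6.12 and 7.56 at 16 HPI and 3.92, 2.86 and 3.01 at 24 HPI. No group overlapped the control group: all libraries of 8 and 16 HPI lay above it, and all libraries of 1, 3 and 24 HPI lay below it. The log2 fold change was 0.75 ± 0.14 (SE), adjusted p = 0.00232 at 8 HPI and 0.56 ± 0.14 (SE), adjusted p = 0.00668 at 16 HPI, calls that were lost only without the replicate block (adjusted p = 0.116 and 0.107). At 24 HPI it was -0.48 ± 0.16 (SE), adjusted p = 0.0395, and this call was lost in 10 of 26 alternatives, among them leaving out any of the 3 control libraries, replicate 2 of 1 HPI, or replicate 2 or 3 of 24 HPI. At 1 and 3 HPI it was -0.55 and -0.46 with adjusted p-values of 0.151 and 0.177. The turns were larger than the differences from control: Dusp16 rose from 3 to 8 HPI (1.21 ± 0.15 (SE), adjusted p = 2.46e-05) and fell from 16 to 24 HPI (-1.04 ± 0.15 (SE), adjusted p = 0.000108), both in all 26 alternatives. Its libraries held 53 to 177 counts, so single libraries carry more counting error here than for Dusp8, which held 935 to 2093.

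Dusp10 (ENSMUSG00000039384.8, chr1:184013302-184075636, plus strand), a phosphatase of JNK and p38, differed between its replicates in the same way in every group. Replicate 2 was the highest library in each of the 6 groups, at 34.2 to 46.0 CPM, while replicates 1 and 3 lay between 18.4 and 33.6 CPM. Each group overlapped control. With the replicate number in the model, Dusp10 was lower than control at 16 HPI (-0.30 ± 0.09 (SE), adjusted p = 0.0238) and lower at 16 than at 8 HPI (-0.44 ± 0.10 (SE), adjusted p = 0.00321). Without it the adjusted p-values were 0.691 and 0.65. The call at 16 HPI was also lost when control replicate 1 or 2, or replicate 1 or 2 of 16 HPI, was left out.

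The Sprouty and Spred genes, which act at the level of Ras and Raf, held 1 call against control, Spry4 at 8 HPI. Spry4 (ENSMUSG00000024427.6) was 69.7, 74.9 and 59.1 CPM in control libraries, 72.7, 77.0 and 80.3 at 1 HPI and 74.3, 89.2 and 94.1 at 3 HPI. It was 77.2, 84.3 and 106 CPM at 8 HPI, 66.0, 63.2 and 76.3 at 16 HPI and 66.8, 71.8 and 63.1 at 24 HPI. The 8 HPI libraries all lay above the control libraries, and those of every other time overlapped them. At 3 HPI the log2 fold change was already 0.33 (adjusted p = 0.138), and 8 HPI differed from 3 HPI by 0.07 (adjusted p = 0.82). The log2 fold change was 0.40 ± 0.10 (SE), adjusted p = 0.0197 at 8 HPI and -0.01 at 16 HPI, with a fall between these times (-0.41 ± 0.10 (SE), adjusted p = 0.00914). Within the batches the log2 difference at 8 HPI was 0.18, 0.16 and 0.83, and the call was lost without control replicate 3 (0.25) and without 8 HPI replicate 3 (0.27), without the replicate block (adjusted p = 0.214) and when the compared groups were fitted alone (0.069). The fall was lost without the block (0.099), without 8 HPI replicate 3 (0.11) and without 16 HPI replicate 2 (0.06).

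Spred1 (ENSMUSG00000027351.14, chr2:117121374-117182279, plus strand), which blocks the activation of Ras and Raf, lay between 58.3 and 118.6 CPM over all libraries, replicate 1 was its highest library in every group, and each group overlapped control. It passed at no time against control. Its log2 fold change was 0.28 ± 0.09 (SE), adjusted p = 0.0564 at 8 HPI, and 6 of 26 alternatives put that adjusted p under 0.05. From 8 to 16 HPI it fell (-0.30 ± 0.09 (SE), adjusted p = 0.0253), a call lost in 6 of 26 alternatives: with upper-quartile factors, without the replicate block, and without 8 HPI replicate 1, 8 HPI replicate 3, 16 HPI replicate 1 or 16 HPI replicate 2. Spry2 (ENSMUSG00000022114.4, chr14:105891947-105896819, minus strand), an antagonist of receptor tyrosine kinase signaling, lay between 15.9 and 30.2 CPM, overlapped control in every group and passed in none of the 9 comparisons. Its log2 fold change against control ran from 0.09 at 24 HPI to 0.35 at 3 HPI, with a standard error of 0.14 at each of these times. Leaving out control replicate 1, the highest control library, brought Spry2 to 0.53 at 8 HPI (adjusted p = 0.034) and 0.55 at 16 HPI (0.0095), and the 16 HPI call was also reached without 8 HPI replicate 3, without 16 HPI replicate 2 and with these groups fitted alone.

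Between neighboring time points, each step was tested on its own, and Dusp6 and Spry2 passed at none. From 1 to 3 HPI, 0 of 10 changed, and 0% of all tested genes did; at an unadjusted p under 0.05 the counts were 0 of the 10 and 1035 of all tested genes, and DESeq2 also called 0 of the 10. From 3 to 8 HPI, 3 of 10 rose (Dusp1, Dusp8 and Dusp16), against 1.74% of all tested genes, and 0 fell (1 at an unadjusted p under 0.05 and 0 by DESeq2), against 0.559%. From 8 to 16 HPI, 2 of 10 rose (Dusp4 and Dusp5), against 7.30%, and 4 fell (Dusp8, Dusp10, Spry4 and Spred1), against 7.86%. From 16 to 24 HPI, 0 rose (1 at an unadjusted p under 0.05 and 0 by DESeq2), against 3.59%, and 4 fell (Dusp1, Dusp4, Dusp5 and Dusp16), against 6.22%. Without the replicate block the count from 8 to 16 HPI was 2 instead of 6, and it was 3 without 8 HPI replicate 3.

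The other genes of the pathway were taken from lists by role. Of 15 tested immediate early and ERK target genes, 3, 4, 9, 10 and 5 were higher than control at 1, 3, 8, 16 and 24 HPI, and 2 (Etv1 and Etv5) were lower at 16 HPI. Of all tested genes, 0.276% and 0.189% passed in either direction at 1 and 3 HPI. At 8, 16 and 24 HPI 3.78%, 10.7% and 5.99% were higher, and 11.5% were lower at 16 HPI. The median log2 fold change of these 15 was 0.33, 0.30, 1.03, 0.81 and 0.23 at the same times. Fos, a subunit of the AP-1 transcription factor, was 2.52 ± 0.31 (SE), adjusted p = 0.000745 above control at 1 HPI and 2.79 ± 0.30 (SE), adjusted p = 5.73e-06 at 8 HPI on the log2 scale, and its level in the 3 libraries ran from 0.4995 to 1.745 CPM in control and from 4.08 to 9.12 CPM at 1 HPI. Fosb and Arc were also over 2-fold at 1 HPI, when none of the 10 inhibitors passed. Egr1, a zinc finger factor and a classical readout of ERK activity, was 2.14 ± 0.21 (SE), adjusted p = 2.02e-06 above control at 8 HPI and 1.00 ± 0.23 (SE), adjusted p = 0.00333 at 16 HPI. Fosl2, Jun, Ier2 and Ier3 were over 2-fold at 8 HPI as well, with log2 fold changes of 1.03 (Jun) to 1.49 (Fosl2), and Junb was so at 16 and 24 HPI.

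The kinase cascades and receptors held 0 genes past the test at 8 HPI, also by DESeq2. Of all tested genes, 3.78% were higher and 3.90% lower at 8 HPI, and 10.7% were higher and 11.5% lower at 16 HPI. A few calls in lists of this size are therefore common at 16 HPI. Of 16 tested genes of the ERK cascade, which run from adaptors such as Shc1 and Grb2 down to kinases such as Mapk3, 5 had an unadjusted p under 0.05 at 8 HPI, and at 16 HPI Sos2 was higher and Grb2, Ksr2 and Mapk3 were lower, with a median log2 fold change of 0.04 and -0.06. Of 21 tested genes of the JNK and p38 cascade, 2 had such a p at 8 HPI, and at 16 HPI Map3k5 and Map3k11 were higher (0.47 and 0.36) and Map3k12, the injury-sensing kinase DLK, was lower (-0.21, adjusted p = 0.012), with a median of 0.05 and -0.04. Of 11 tested receptors, 4 had such a p at 8 HPI, and at 16 HPI Fgfr1 and Egfr were higher and Ntrk3, Ngfr and Kit lower. Egfr, the receptor for EGF, was over 2-fold higher at 16 HPI (1.46 ± 0.34 (SE), adjusted p = 0.00309) at a low level, 0.145 to 0.799 CPM in control libraries and 1.35 to 1.76 CPM at 16 HPI.

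Among relatives of the 10 genes, 1 phosphatase passed against control at both 8 and 16 HPI. Dusp14, 1 of 11 tested atypical dual-specificity phosphatases, was higher at 8 HPI (log2 fold change 0.75, adjusted p = 0.00477) and at 16 HPI (0.96, adjusted p = 8.23e-05), and the other 10 passed at neither time. Of 5 tested MKP, Sprouty and Spred genes outside the 10, Dusp7 was lower at 8 HPI (-0.29) and Dusp2 higher at 16 HPI (0.91, adjusted p = 0.0482). Of 8 other inhibitors between receptor and ERK, Errfi1, an inhibitor of the EGF receptor, was higher at both times (0.40 and 0.57), and at 16 HPI Lrig1 was higher and Nf1 lower. The shares of all tested genes at 8 and 16 HPI are those given in the preceding paragraph. Of the pathway genes in this and the preceding paragraph, only Egfr was over 2-fold against control. These genes, like Etv1 and Etv5, are named because they were the few that passed, a choice made after their values were seen. From 16 to 24 HPI, 2 of the 5 tested MKP, Sprouty and Spred genes outside the 10 fell more than 2-fold, where 57 of all 13771 tested genes did. Against control, the median log2 fold change of these 3 lists lay between -0.025 and 0.098 at 8 and 16 HPI, beside 0.40 and 0.20 for the 10 genes. Markers of the cell types moved at the late times as well. Dcn, 1 of 4 tested fibroblast markers, was 2.07 and 2.22 above control on the log2 scale at 16 and 24 HPI, while the sum of the fibroblast markers overlapped control (2.54 to 10.04 CPM in control, 4.71 to 13.4 at 16 HPI and 3.83 to 15.6 at 24 HPI). The myeloid markers summed to 3.42 to 4.70 CPM in control and lay wholly above that at 16 HPI (4.87 to 6.002 CPM) and at 24 HPI (5.41 to 7.07 CPM). Of the 2 tested myeloid markers, Cd68 passed at both times (0.96 and 0.93, adjusted p = 0.00698 and 0.0125) and Aif1 at neither, and Itgam had at most 1 count in a library. The neuron marker Tubb3 was lower at both times (-0.40 and -0.37, adjusted p = 1.09e-05 and 6.79e-05), whereas Pou4f1 and Isl1 were higher at 24 HPI (0.20 and 0.26). The part of these markers in the changes at 16 and 24 HPI was not tested.

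**Figure D5:**
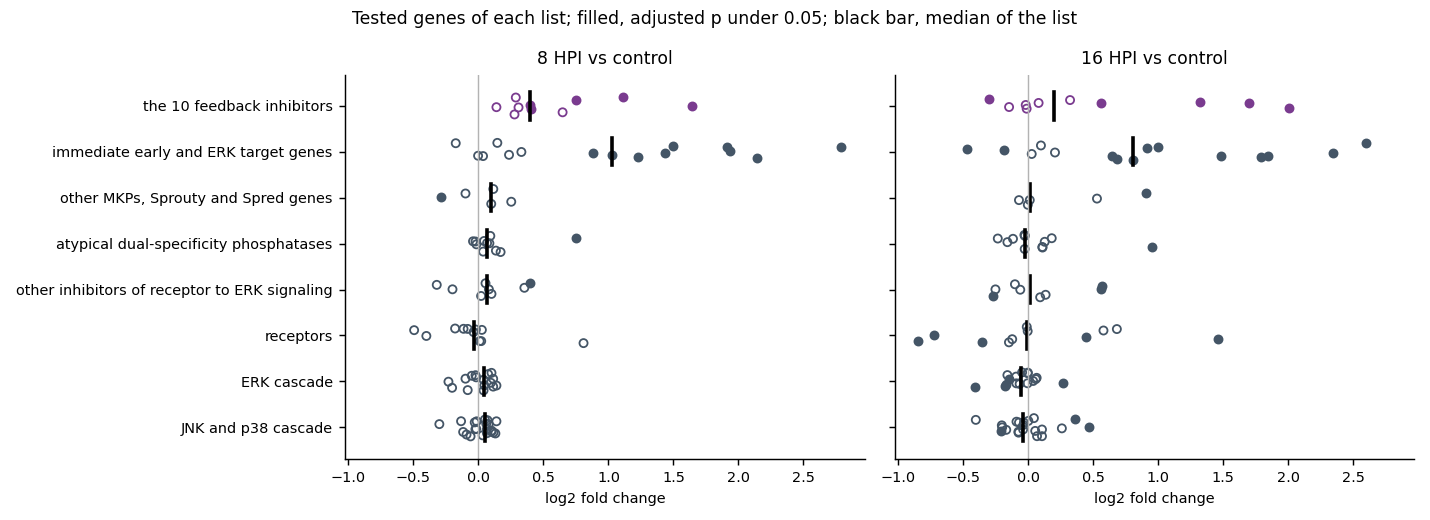
Log2 fold change against control at 8 HPI (left) and 16 HPI (right) for every tested gene of 8 lists, with filled points for genes that passed the test and a black bar at the median of the list. The 10 feedback inhibitors have a median of 0.40 at 8 HPI and 0.20 at 16 HPI, the immediate early and ERK target genes 1.03 and 0.81, and the medians of the other 6 lists lie between -0.06 and 0.10.

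The course of each gene over the 18 libraries, as log2 CPM with the batch removed, was compared with that of all tested genes. The genes most like Dusp1 were Atf3 (Pearson r = 0.966), a transcription factor induced by axon injury, Mdm2 (0.961), which restrains p53, and Zfp180 (0.958). Those most like Dusp4 were Gtf2a1 (0.960), Bcl2 (0.954), an inhibitor of cell death, and Slc30a4 (0.944), and those most like Dusp5 were Gtf2a1 (0.913), Junb (0.906) and Rras2 (0.902), a Ras-related GTPase. These ranks depend on the 18 libraries being used one by one: over the 6 group means, Atf3, Mdm2 and Zfp180 stood at ranks 30, 20 and 10 for Dusp1, Gtf2a1, Bcl2 and Slc30a4 at 2, 7 and 37 for Dusp4, and Gtf2a1, Junb and Rras2 at 5, 43 and 97 for Dusp5. Their fold changes were of unlike size: Atf3 was 2.29 and 3.16 above control at 8 and 16 HPI on the log2 scale, whereas Gtf2a1 was 0.14 and 0.30. Among the 10 genes, r was 0.89 between Dusp4 and Dusp5, 0.86 between Dusp1 and Dusp16, 0.81 between Dusp1 and Dusp4, 0.80 between Spry4 and Dusp10, 0.77 between Spry4 and Spred1 and 0.76 between Dusp6 and Spry4. It was 0.03 between Dusp4 and Dusp8 and -0.57 between Dusp5 and Dusp10. These r are descriptions only, as every gene was measured in the same 18 libraries of 6 groups, which differ in depth.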

How the data were processed

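RNA was sequenced from 18 libraries of eDRG spot cultures, 3 in each of 6 groups. The authors deposited raw counts of reads per gene, made by trimming, alignment with STAR to mm10 and counting, with no normalization. The study's methods name featureCounts, whereas the labels list HTSeq and each table ends in the 5 entries that htseq-count writes. Those entries (25.2% to 33.2% of all counts) were left out. Whether strand was used in counting is not given in the sources used here. The labels name Ribo-Zero Gold and SMARTer kits.

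Symbols, positions and exon lengths came from GENCODE vM21 (GRCm38). Counts were analysed with edgeR 4.0.16 in R 4.3.3: genes over 1 CPM in at least 3 libraries, TMM factors, a quasi-likelihood fit over the 18 libraries together (time point plus replicate number), two-sided tests and Benjamini-Hochberg adjustment over 13771 genes. The method was tested on simulated data. A gene over 2-fold has an absolute log2 fold change over 1 and an adjusted p under 0.05. CPM and RPKM per library were taken from total counts on genes, without TMM factors. Correlations used log2 CPM with a prior count of 2. Promoters came from RefSeq. Precision is limited by the depth of 9478891 to 23082327 counts per library and by the spread between the 3 libraries of each group. 3 counts were the floor of detection, which covers counting error only.

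Libraries with the same replicate number deviated together from their group means: the correlation averaged 0.619 (0.484 to 0.765, n = 45 pairs), against -0.308 (-0.577 to -0.0423, n = 90) for different numbers. With group means removed, a positive correlation for the same number by itself makes that for different numbers negative. The pairing thus rests on the same-number correlation, for which the number was kept as a block. The study's methods name a batch correction with other tools and do not say what the batch was.

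Alternatives were DESeq2 size factors, upper-quartile factors, the DESeq2 1.42.0 Wald test, filters at 10 counts or at 1 CPM in all libraries, no replicate block, the compared groups alone, no rRNA list and mitochondrial genes, and each library left out. The 10 genes, the lists and the motifs were chosen with earlier results of these data known. All 10 genes are described. Other genes named are list genes over 2-fold, the 3 genes with the highest r for each inhibitor over 2-fold, and those said to be chosen after their values were seen. Some culture details and genes are not reported here.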

Additional observations from a re-analysis of the deposited data

How the results depend on the processing

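The 10 genes at each time point against control gave 50 combinations, each with 26 alternatives. Of these 1300 fits, 1236 kept their side of the threshold, 32 lost a call, 32 gained one and 0 reversed a called direction. Most of the 50 held no call in the main fit, so most of the 1236 had no call to lose. In most leave-out fits the library left out belonged to neither compared group. The 2-fold calls at 16 HPI held in all 26 alternatives. Without the replicate block, counts of passing genes fell to 2 higher at 8 HPI, to 3 above and 0 below control at 16 HPI, to 1 above and 0 below at 24 HPI, 2 changed from 8 to 16 HPI and 4 changed over the time course; this fit keeps the batch in the spread. With the filter at 10 counts, 1 was higher at 1 HPI, 1 higher at 3 HPI, 7 higher at 8 HPI and 1 lower at 24 HPI. With the compared groups alone, 1 was higher and 1 lower at 1 HPI. The DESeq2 Wald test gave 1 lower at 3 HPI, 7 higher at 8 HPI and 1 lower at 24 HPI, leaving out the rRNA list and mitochondrial genes gave 6 higher at 8 HPI, and upper-quartile factors gave 1 lower and 1 over 2-fold at 24 HPI. The cause of these differences was not tested. With each library left out in turn, the counts ran from 0 to 1 above and 0 to 1 below control at 3 HPI, 4 to 6 above and 1 to 2 over 2-fold at 8 HPI, 4 to 5 above and 0 to 1 below at 16 HPI, 1 to 3 above, 0 to 2 below and 0 to 1 over 2-fold at 24 HPI, 3 to 6 changed from 8 to 16 HPI, 3 to 4 from 16 to 24 HPI, and 8 to 10 over the time course. The test over all groups was added after the data were seen to the alternatives that could give it, which leaves out DESeq2 and the compared groups alone. Dusp4, Dusp5 and Dusp16 had the lowest depth, at 48 to 224 counts per library.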
